A study of Mus musculus with 21 samples.

Results

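Krt7, Krt8, Krt18, Krt19, Epcam, Cdh1, Cldn4 and Cldn7, genes that mark simple epithelium, were followed library by library beside Pecam1, which encodes the endothelial surface protein CD31. They were chosen by name, as the 8 rows of the deposited table with these symbols among 45706 genes, to read how much RNA of tumour epithelium a sort for endothelium may have carried along. The libraries came from CD31-positive cells sorted out of breast tumours that the mouse mammary tumour line E0771.lmb had formed in adult mice, with tumours taken 14 to 16 days after the cells were injected. The 11 control libraries (WT) came from 9 tumours of wild-type mice. The 10 knockout libraries (KO) came from 8 tumours of Shb iECKO mice, which carry Shb flox/flox and Cdh5-CreERt2, so that tamoxifen removes the adaptor gene Shb from cells with an active Cdh5 promoter, the endothelium. The tumour cells themselves were not the target of that deletion, and both groups received the same line. Tamoxifen was named for the mice in which tumours were grown, with no group set apart from it. Vav1-cre deletion (Shb ICKO mice) and a MACS step that isolated CD45+ cells before CD31 staining are also named in the protocol, without saying for which samples. Labels do not say which libraries share a tumour, so p-values partly measure the spread between samples of the same tumour. Values are TPM, reads per gene length scaled to the same total in every library, so they can be compared between genes, but depth is unknown. Libraries are named by genotype, replicate number and experiment, as in WT 2 of experiment 4, and 2 columns with the same header are KO 3a and KO 3b of experiment 2.

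Keratins are the intermediate filament proteins of epithelia. Each filament is built from a type II keratin (Krt7, Krt8) bound to a type I keratin (Krt18, Krt19), and Krt8 with Krt18 is the pair that simple epithelia such as the luminal layer of the mammary gland make first. Epcam and Cdh1 (E-cadherin) hold epithelial cells to each other at the surface, and Cldn4 and Cldn7 are claudins of tight junctions. Carcinoma cells can lose Cdh1 and its partners when they take on mesenchymal features, and endothelium normally makes Cdh5 in place of Cdh1 and Cldn5 in place of Cldn4.

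The genes do not lie together, apart from the keratins of chromosome 15. On GRCm38, Krt8 lies at chr15:101996698-102004482 on the minus strand and Krt18 at chr15:102028180-102032027 on the plus strand, 23697 bases apart and reading away from each other, with Krt7 on the same chromosome at chr15:101411043-101430313. Krt19 (chr11:100140810-100148665) and Cldn7 (chr11:69964779-69967885) lie on chromosome 11, Epcam at chr17:87635979-87651129, Cdh1 at chr8:106603351-106670246 and Cldn4 at chr5:134945119-134946934. Krt18, Epcam, Cldn4, Krt7 and Krt19 were all highest in 1 library, while Krt8, the partner of Krt18, was not. The RefSeq promoter window of Krt7 lies within its GENCODE gene, and none was found for Krt19. The bases before the start of Krt8, Krt18, Epcam and Cldn4 are shown as a description, and their relation to these levels was not tested. They are RefSeq promoter windows on GRCm38.p6, trimmed where the GENCODE gene starts earlier. They cover chr15:102004483-102004592 for Krt8, chr15:102027966-102028179 for Krt18, chr17:87635729-87635978 for Epcam and chr5:134946935-134947184 for Cldn4. Each is written in the direction of its gene, and capitals mark the E-box CAGGTG and the GC box GGGCGG on either strand. The stretch of Krt8 holds neither.
Krt8: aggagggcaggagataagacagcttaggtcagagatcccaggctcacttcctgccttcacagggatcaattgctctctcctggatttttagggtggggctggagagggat
Krt18: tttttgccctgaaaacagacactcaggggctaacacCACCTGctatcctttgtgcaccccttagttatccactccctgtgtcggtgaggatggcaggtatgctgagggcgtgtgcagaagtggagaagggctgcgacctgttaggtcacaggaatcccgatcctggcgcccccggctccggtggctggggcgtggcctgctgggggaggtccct
Epcam: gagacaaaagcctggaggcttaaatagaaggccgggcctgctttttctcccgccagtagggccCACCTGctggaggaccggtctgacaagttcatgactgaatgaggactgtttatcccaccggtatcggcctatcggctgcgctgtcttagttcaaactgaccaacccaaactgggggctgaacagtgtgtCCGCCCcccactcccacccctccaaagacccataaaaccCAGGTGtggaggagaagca
Cldn4: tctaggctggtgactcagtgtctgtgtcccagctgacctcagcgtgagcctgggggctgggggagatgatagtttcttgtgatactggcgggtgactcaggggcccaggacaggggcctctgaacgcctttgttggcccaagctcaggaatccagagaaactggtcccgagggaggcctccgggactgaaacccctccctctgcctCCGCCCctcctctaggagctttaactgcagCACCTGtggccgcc
Promoter windows were found for 6 of the 8 genes. Over the full 250 bases before each RefSeq start, CAGGTG was present for all 6 on 1 strand or the other, for Cldn7 in the window of 1 of its starts, and in 17.2% of 32851 mouse windows of that length. Its first base lay 111 bases before the RefSeq start of Krt8, past the stretch shown, 214 before that of Krt18, 19 and 187 before that of Epcam and 14 before that of Cldn4. The CAGGTG matches of Krt18, Epcam and Cldn4 lay before the GENCODE start of the gene. Those of Krt8, Krt7 and Cldn7 lay past it, within the annotated gene. GGGCGG was present for 4 of the 6 (Krt7, Epcam, Cldn4 and Cldn7) and in 32.7% of all windows. The matches of Krt7 and Cldn7 again lay past the GENCODE start. The shares over all windows were counted without trimming at that start. TATAAA was present for 0 of the 6 and in 12.4% of all windows. These matches describe the letters and were not tested for binding.

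Epithelial transcripts were scarce in most libraries and unevenly spread. Krt8 was above 0 TPM in 19 of 21 libraries, and it was the 1 gene of the 8 with a median above 0 (3.51 TPM). Cdh1 was above 0 in 10 libraries, Cldn4 in 9, Krt18 and Epcam in 7 each, Krt7 in 6 and Krt19 and Cldn7 in 5 each. KO 2 of experiment 3 and KO 1 of experiment 4 had all 8 genes listed at 0, whereas WT 2 of experiment 2 and WT 2 of experiment 3 had all 8 above 0. At least 4 of the 8 genes were above 0 in 8 libraries. The 2 libraries with all 8 above 0 had 19228 and 20526 genes detected, and the 2 with all 8 at 0 had 14540 and 13521, while KO 2 of experiment 4 had 6 above 0 with 12747 genes detected. The part of detection in these counts was not tested. A gene listed at 0 was not always absent: 12 genes that every cell uses were never at 0, but 24 of 1305 genes with a median of at least 100 TPM were listed at 0 in some library. Pecam1 had a median of 1235 TPM. In bulk RNA, fewer epithelial cells and less RNA per such cell cannot be told apart.

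**Figure D1:**
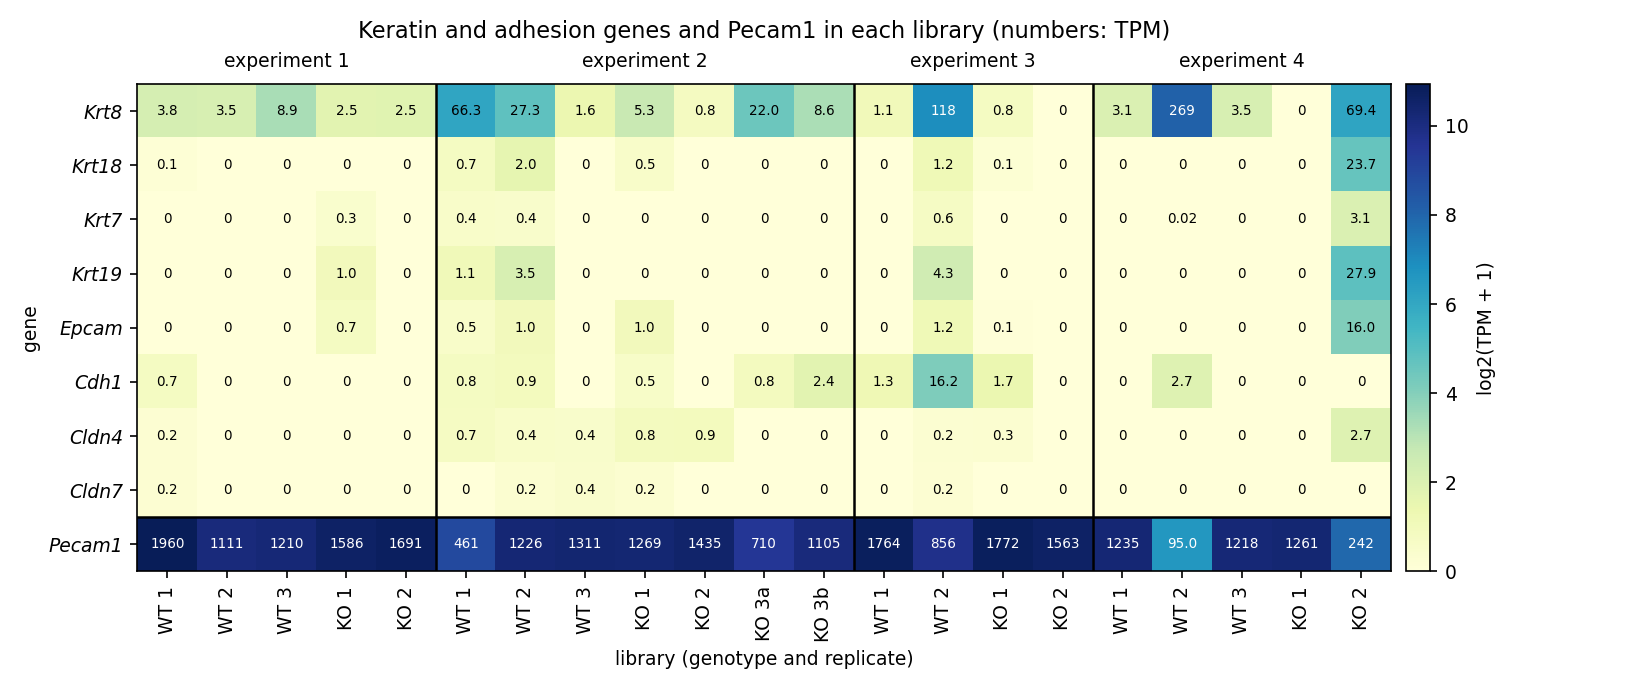
TPM of the 8 keratin and adhesion genes and of Pecam1 (rows) in each of the 21 libraries (columns, by experiment and genotype), with colour as log2(TPM + 1) and the number in each cell as TPM. Krt8 reaches 269 TPM in WT 2 of experiment 4, where Pecam1 is lowest (95.04 TPM), and Krt18, Krt7, Krt19, Epcam and Cldn4 are highest in KO 2 of experiment 4.

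Krt8, the type II keratin of simple epithelium, varied more than any other gene of the 8 in TPM. In experiment 1 it stood at 3.76, 3.51 and 8.89 TPM in WT and at 2.45 and 2.51 TPM in KO, a narrow band in which WT lay above KO. In experiment 2 it stood at 66.3, 27.3 and 1.58 TPM in WT and at 5.34, 0.78, 22 and 8.62 TPM in KO. High and low libraries occurred in both genotypes there. In experiment 3 it stood at 1.08 and 118 TPM in WT and at 0.75 and 0 TPM in KO. In experiment 4 it stood at 3.06, 269 and 3.51 TPM in WT and at 0 and 69.4 TPM in KO. Krt8 was thus highest in 4 libraries, 3 of WT and 1 of KO, at 66.3 TPM or more, and they came from experiments 2, 3 and 4. In WT 2 of experiment 4 the level of Krt8 was above that of 98.7% of the genes detected in that library, and in WT 2 of experiment 1 it was above 15.4%.

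Krt18, the type I partner of Krt8, followed it only in part from library to library. It was listed at 0 in 14 libraries, 7 of each genotype, and stood at 23.7 TPM in KO 2 of experiment 4. The other 6 libraries ran from 0.12 TPM to 2.02 TPM, the highest of them WT 2 of experiment 2. In WT 2 of experiment 4, with the highest Krt8, Krt18 was listed at 0. The ratio of Krt8 to Krt18 in TPM, which is per gene length, was 2.92 in KO 2 of experiment 4. In the other libraries where both were above 0 it ran from 5.77 in KO 1 of experiment 3 to 94.8 in WT 2 of experiment 3. Krt18 was above 0 in no library that lacked Krt8, while Krt8 was above 0 in 12 libraries that lacked Krt18. Only 2 libraries lacked Krt8, and all the other keratin and adhesion genes were at 0 there too, so the first count is not particular to Krt18.

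Krt19, a type I keratin of ducts and glands, and Krt7, a type II keratin of the same tissues, appeared in nearly the same libraries. Krt19 stood at 27.9 TPM in KO 2 of experiment 4, at 4.31 TPM in WT 2 of experiment 3 and at 3.52 TPM in WT 2 of experiment 2. It stood at 1.15 TPM in WT 1 of experiment 2 and 0.98 TPM in KO 1 of experiment 1, and was listed at 0 in the rest. Krt7 reached 3.12 TPM in KO 2 of experiment 4 and did not exceed 0.63 TPM elsewhere. All 5 libraries with Krt19 also had Krt7.

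Epcam, the adhesion molecule by which carcinoma cells are often sorted, had the same highest library. It stood at 16.02 TPM in KO 2 of experiment 4 and did not exceed 1.25 TPM in any other library, with 14 libraries listed at 0. Cldn4 reached 2.71 TPM in KO 2 of experiment 4 and 0.90 TPM at most elsewhere, and Cldn7 did not exceed 0.37 TPM in any library. Cdh1 stood apart from the rest. It was highest in WT 2 of experiment 3, at 16.2 TPM, followed by 2.71 TPM in WT 2 of experiment 4 and 2.43 TPM in KO 3b of experiment 2, and it was listed at 0 in KO 2 of experiment 4. The library with the most Krt18, Krt19 and Epcam was therefore 1 of 11 without Cdh1.

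**Figure D2:**
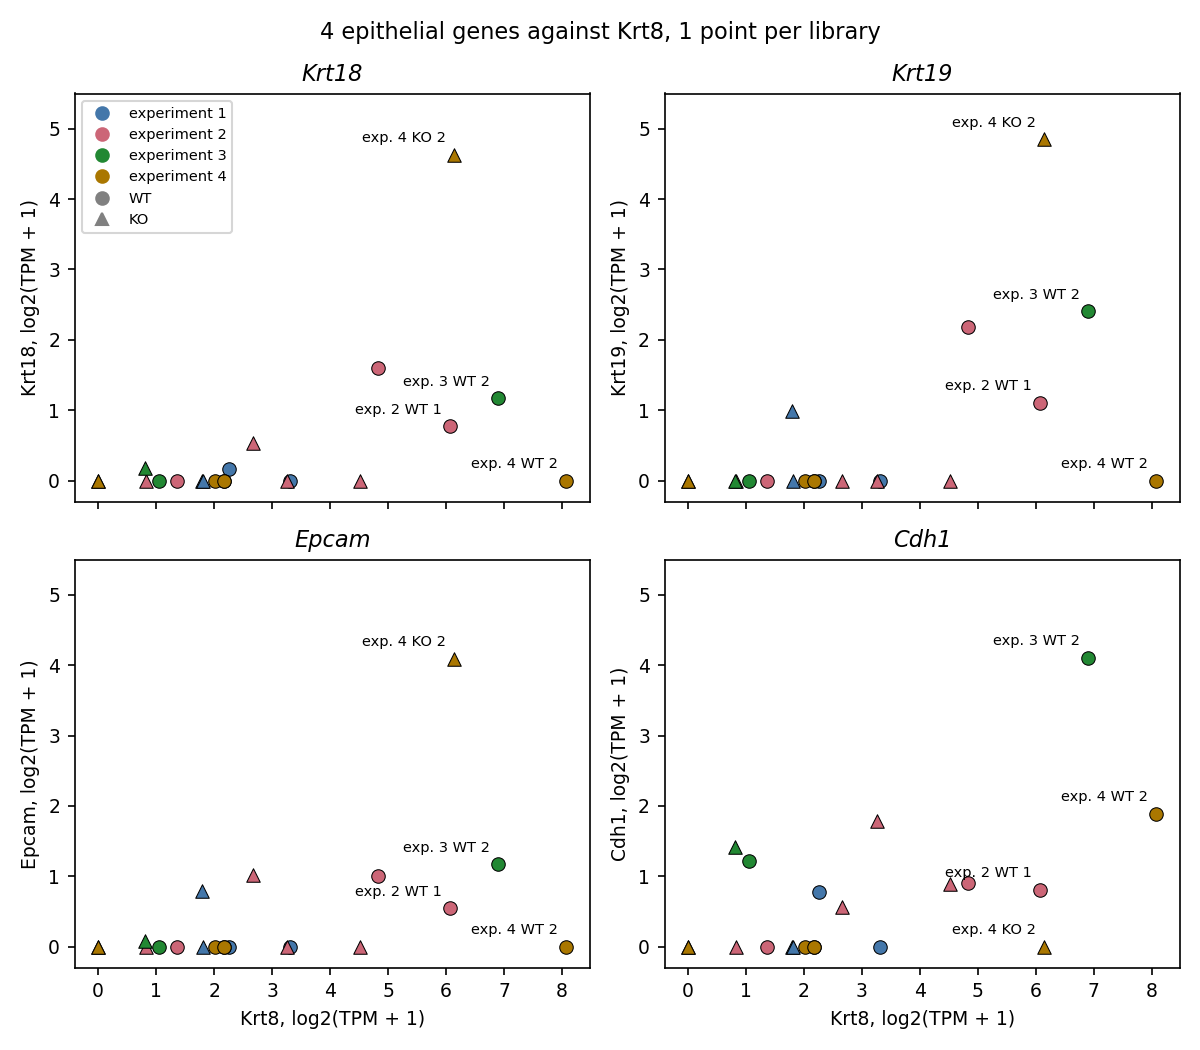
Krt18, Krt19, Epcam and Cdh1 (vertical axes) against Krt8 (horizontal axes), all as log2(TPM + 1), 1 point per library, with colour for the experiment and shape for the genotype. KO 2 of experiment 4 lies high for Krt18, Krt19 and Epcam and at 0 for Cdh1, and WT 2 of experiment 4, with the highest Krt8, lies at 0 for Krt18, Krt19 and Epcam.

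Library by library, the genes occurred in different combinations, which rest on single libraries and are given as values without a test. In KO 2 of experiment 4, 6 of the 8 genes were above 0 and Krt8 made up 48.6% of their summed TPM of 143. Pecam1 stood at 242 TPM, and the library had 12747 genes detected within a range of 12178 to 20526. In WT 2 of experiment 4, Krt8 made up 99.0% of a summed 272 TPM, with 3 genes above 0 and Pecam1 at 95.04 TPM. In WT 1 of experiment 2, Krt8 made up 94.1% of 70.5 TPM, but 7 genes were above 0, and Pecam1 was 461 TPM. In WT 2 of experiment 2, with all 8 genes above 0, Krt8 made up 76.2% of 35.9 TPM, and Pecam1 was 1226 TPM. In WT 2 of experiment 3, Krt8 made up 83.1% of 142 TPM and Cdh1 most of the remainder, while Pecam1 stood at 856 TPM.

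Markers of other cell types were high in some of the same libraries. The 8 leukocyte markers, led by Fcer1g and Lyz2, summed to 3857 TPM in WT 2 of experiment 3, where all 8 of them were highest, against a median of 152 TPM in WT and 42.3 TPM in KO. They summed to 533 TPM in WT 2 of experiment 4, 188 TPM in WT 1 of experiment 2 and 166 TPM in KO 2 of experiment 4. The 7 fibroblast markers, led by Col3a1 and Col1a1, summed to 580 TPM, 136 TPM, 383 TPM and 38.0 TPM in these same 4 libraries, against medians of 54.8 TPM in WT and 25.8 TPM in KO. The 6 mesothelial markers, which a keratin signal can also come with, summed to at most 6.84 TPM in any library, and Msln did not exceed 0.763 TPM. The 10 endothelial markers summed to 541 TPM in WT 2 and 1565 TPM in KO 2 of experiment 4, the lowest of all libraries, and mitochondrial genes took 17.7% and 23.0% of TPM there. They also took 17.2% in KO 3b of experiment 2 (Pecam1 1105 TPM) and 14.6% in WT 3 of experiment 4 (Pecam1 1218 TPM). Mitochondrial and small RNA genes together took 37.0% in WT 2 and 54.5% in KO 2 of experiment 4, against 34.6% in WT 1 of that experiment. A larger share of these genes leaves less TPM for all others. The part of leukocytes, fibroblasts or RNA quality in the levels of Krt8 and Cdh1 was not tested, nor was whether the epithelial RNA came from the injected line or from mammary epithelium of the host.

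The heteropolymer pair Krt8 and Krt18 was related across the 21 libraries only loosely. On log2(TPM + 1) Pearson's r was 0.49 (permutation p = 0.0215, adjusted 0.043 over the 2 relations computed) and Spearman's rho 0.49 (permutation p = 0.0252, adjusted 0.0504), two-sided. With the mean of each experiment removed r was 0.46 (permutation within experiments, p = 0.135, adjusted 0.27), and within experiment 2, the 1 experiment with enough libraries, it was 0.58 (n = 7, exact permutation p = 0.171, adjusted 0.342). These 7 count both columns under the same header, of which 1 may be a library of experiment 4. Without the 2 libraries farthest from the median of Krt8 r was 0.65 (permutation p = 0.0011, adjusted 0.0022). They were WT 2 of experiment 3 and WT 2 of experiment 4, and the latter had the highest Krt8 with Krt18 listed at 0. The pooled relation lost its call without any 1 of 8 libraries, and 14 of the 21 points lie at a Krt18 of 0. Krt18 against Pecam1 gave r = -0.44 (permutation p = 0.0603, adjusted 0.0603) and rho = -0.18 (permutation p = 0.433, adjusted 0.433). With experiment means removed that r was -0.36 (permutation within experiments, p = 0.417, adjusted 0.417), and within experiment 2 it was -0.11 (n = 7, exact permutation p = 0.81, adjusted 0.81). Without the 2 libraries farthest from the median of Pecam1 it was -0.37 (permutation p = 0.113, adjusted 0.113). These 2 libraries, KO 2 and WT 2 of experiment 4, moved it in opposite directions: r was -0.088 without the first and -0.77 without the second (permutation, adjusted p = 0.709 and 0.00402).

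Krt8 fell as Pecam1 rose. In a model of log2(TPM + 1) with genotype and experiment as terms, Krt8 changed by -2.05 log2 units per log2 unit of Pecam1 (SE 0.29, 95% interval -2.65 to -1.46, limma adjusted p = 1.2e-05), the most negative slope of 13502 genes tested. Of those genes 20.7% had a slope past an adjusted p of 0.05 by limma, and 2.56% had one that was negative. The 2796 genes behind the first share were 400 without experiment 4 and 154 without the 3 libraries lowest in Pecam1. Krt8 alone of the 8 genes met the minimum for this test, 1 TPM or more in 10 or more libraries, so the count is 1 of 1 tested and the other 7 genes were not tested. Taking in all genes above 0 in any library, the slope of each of the other 7 had an adjusted p by limma of 0.203 or more, with 6 negative and Cldn7 positive at 0.03. The slope of Krt8 remained past the threshold without each library in turn (-2.51 to -1.89) and was -2.82 without experiment 4 (limma, adjusted p = 0.0345). Without the 3 libraries lowest in Pecam1 it was -3.44 (limma, adjusted p = 0.0466). TPM is a share of each library, so the levels of different genes are not independent.

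**Figure D3:**
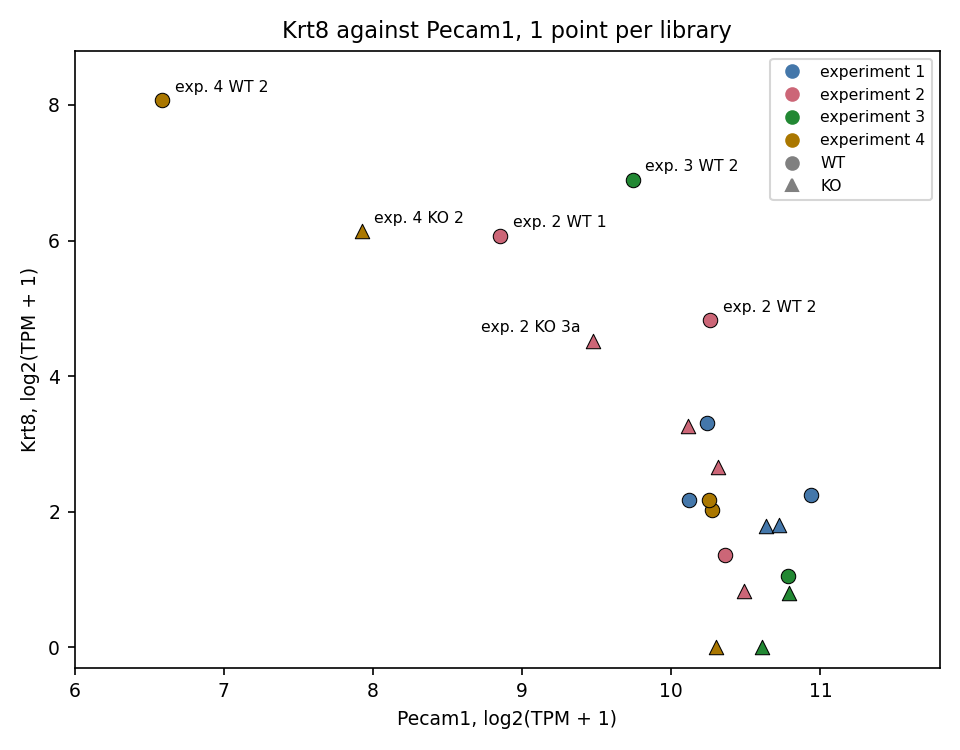
Krt8 against Pecam1, both as log2(TPM + 1), 1 point per library, with colour for the experiment and shape for the genotype. WT 2 of experiment 4 has the highest Krt8 (269 TPM) and the lowest Pecam1 (95.04 TPM), and WT 2 of experiment 3 has high Krt8 (118 TPM) at a Pecam1 of 856 TPM.

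Other genes of the epithelial lists went both ways with Pecam1. Of the 20 other keratins and epithelial adhesion genes 6 were tested, 4 with a positive and 1 with a negative slope past the threshold. The positive ones were Itga6, an integrin subunit (0.34, SE 0.10, limma adjusted p = 0.0204), Jup, the junction protein plakoglobin (0.78, SE 0.12), Itgb4, the partner of Itga6 (0.76, SE 0.13), and Krt20, a keratin of gut epithelium (0.75, SE 0.17, limma adjusted p = 0.00185). Itga6, Jup and Itgb4 had medians of 515, 199 and 71.4 TPM and were above 0 in all 21 libraries. Which cells made them was not tested. Krt20 stood at a median of 7.95 TPM, above that of Krt8. It was listed at 0 in KO 2 of experiment 4 and at 0.751 TPM in WT 2 of experiment 4. Krt20 was thus low in both libraries with the least Pecam1. The negative one was Pkp3, a desmosome protein (-0.87, SE 0.25), named after its values were seen. Of 15 epithelial regulators and proteases 3 were tested: Spint2, a protease inhibitor, rose with Pecam1 (1.09, SE 0.15), Klf5, a transcription factor of basal and luminal epithelium, fell (-0.96, SE 0.28, limma adjusted p = 0.015), and St14 passed in neither direction. Of 12 mammary luminal and milk genes 4 were tested and Wfdc2, a secreted protein of glands and ducts, fell (-1.33, SE 0.35, limma adjusted p = 0.00835). For comparison, all 9 tested endothelial markers other than Pecam1 rose past the threshold, with a median slope of 0.99. Slopes of the 8 leukocyte markers ran from -1.15 to -0.28 (median -0.95), and 2 of them passed. Those of the 4 tested fibroblast markers ran from -1.20 to -0.46 (median -0.84), and 1, Pdgfra, passed (-1.20, SE 0.29). The median slope of all genes was 0.19.

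The library with the most Krt18 held some other epithelial and mammary transcripts, with most genes on the lists at 0. KO 2 of experiment 4 had the highest value of 21 libraries for 5 of the 8 genes, for 2 of the 20 other keratins and adhesion genes, for 1 of the 15 regulators and proteases and for 2 of the 12 mammary genes. It was listed at 0 for 12, 10 and 7 genes of the last 3 lists, in which 11, 8 and 7 genes had a median of 0. WT 2 of experiment 3 was highest for 5, 2 and 1 genes of these lists and WT 2 of experiment 4 for 1, 3 and 2, so KO 2 of experiment 4 did not stand out over the lists as a whole. Its 5 genes, named after their values were seen, were Ocln (4.13 TPM), a tight junction protein, Perp (2.77 TPM), a desmosome protein, Grhl2 (2.62 TPM), a transcription factor that keeps cells epithelial, Csn3 (10.4 TPM), the milk protein kappa-casein, and Prlr (10.1 TPM), the prolactin receptor. Prlr did not exceed 1.84 TPM and Csn3 did not exceed 4.70 TPM in any other library. The basal keratins Krt5 and Krt14 were listed at 0 in KO 2 of experiment 4, and were above 0 in only 2 and 3 of the 21 libraries. The milk genes Wap and Csn2 were listed at 0 in all libraries. These 4 genes were also named after their values were seen. In WT 2 of experiment 4, by contrast, Prlr was listed at 0 and Csn3 stood at 0.0747 TPM. Wfdc2 was highest there, at 80.7 TPM, and reached 47.1 TPM in WT 2 of experiment 3, 24.7 TPM in WT 1 of experiment 2 and 19.3 TPM in KO 2 of experiment 4. Klf5 was also highest there, at 30.4 TPM, against a median of 4.75 TPM. Of the 8 mesenchymal transition genes 6 were tested and 5 rose with Pecam1. Among them were the filament gene Vim (slope 0.34) and the matrix gene Fn1 (slope 0.53). Vim stood at 767 TPM or more in every library. The other tested gene, Zeb2, had a negative slope that did not pass (-0.66, SE 0.25, limma adjusted p = 0.0654). Zeb2 had a median of 20.5 TPM and reached 152 TPM in WT 2 of experiment 3. Twist1, not tested, had a median of 0.6 TPM and reached 22.5 TPM in WT 2 of experiment 4. Zeb2 and Twist1 were named after their values were seen.

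Krt8 did not differ between knockout and wild-type libraries beyond the spread of single libraries. It averaged 46.03 ± 82.6 TPM in WT (SD, n = 11, median 3.76) and 11.2 ± 21.5 TPM in KO (SD, n = 10, median 2.48). Values ran from 1.08 to 269 TPM in WT and from 0 to 69.4 TPM in KO. The log2 difference of KO from WT was -1.55 (SE 0.90, 95% interval -3.41 to 0.32, limma adjusted p = 0.834 over 13503 genes), or -1.43 relative to the median of all genes, -0.11. Krt8 was lower in KO in each experiment, by -0.78, -1.27, -3.57 and -1.02 log2 units in experiments 1 to 4, and the values of the 2 genotypes overlapped in experiments 2 and 4. Of all genes tested 0.00741% passed, 1 gene (the histone gene Hist1h4m, named after its values were seen), and 794 had an unadjusted p under 0.05 by limma, 666 of them lower in KO, so that 0 of 1 tested keratin and adhesion genes passing is near the background. The unadjusted p of Krt8 was 0.0995. Without WT 2 of experiment 3 the difference was -0.997 (limma, adjusted p = 0.998), and with Pecam1 as a covariate it was -1.03 (limma, adjusted p = 0.598). Without KO 2 of experiment 4 it was -2.09 (limma, adjusted p = 0.727), with a KO mean of 4.72 ± 7.07 TPM (SD, n = 9), and with a pseudocount of 0.1 it was -2.32 (limma, adjusted p = 0.869). Leukocyte markers were lower in KO for 8 of 8 genes as well (median -1.74), tested fibroblast markers for 4 of 4 (median -1.31) and pericyte and smooth muscle markers for 5 of 5 (median -1.04). No gene of these lists passed the threshold by limma, and their part in the difference was not tested.

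**Figure D4:**
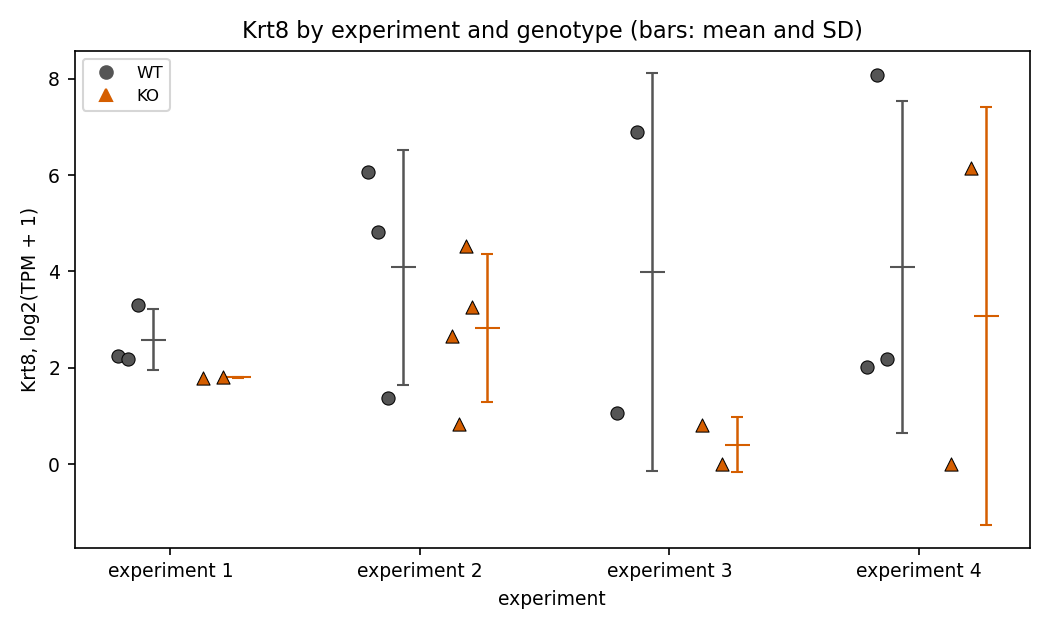
Krt8 as log2(TPM + 1) in each library of WT (circles) and KO (triangles) by experiment, with the mean and SD beside the points. The WT mean lies above the KO mean in each of the 4 experiments, and in each of them the libraries of 1 genotype lie farther apart than the 2 means.

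Between experiments Krt8 did not pass either (limma F = 0.757, adjusted p = 0.597), against 29.1% of genes that did. That background of 3931 genes was 2335 without KO 2 of experiment 4 and 4 without experiment 2. Its median was 3.51 TPM in experiment 1, 8.62 TPM in experiment 2, 0.915 TPM in experiment 3 and 3.51 TPM in experiment 4. High libraries occurred in 3 of the 4 experiments beside low ones of the same genotype. The genotype difference did not vary between experiments beyond the spread (interaction F = 0.397, limma adjusted p = 0.9996).

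Genes whose pattern was most like the mean of Krt8 and Krt18 included several matrix genes. Likeness was Pearson's r of log2(TPM + 1) with the mean of Krt8 and Krt18 over the 21 libraries, ranked over 13502 tested genes. The points share libraries and the closed TPM scale, so r is given as a description. Krt18 was listed at 0 in 14 libraries, and each of the 10 genes below had a higher r with Krt8 alone (0.89 to 0.94). Of the 10 highest 4 were collagen chains: Col5a3 (r = 0.88), Col6a3 (0.87), Col5a1 (0.87) and Col6a1 (0.86). The others were Fcho1 (0.89), of clathrin-mediated uptake, Hmha1 (0.88), a minor histocompatibility antigen gene, Wnt7b (0.87), a Wnt ligand, Sox9 (0.86), a transcription factor of progenitor cells and cartilage, Acap1 (0.86), of membrane traffic, and Nxf3 (0.86), of the RNA export factor family. Col6a3 stood at 694 TPM in WT 2 of experiment 4, 352 TPM in WT 1 of experiment 2, 216 TPM in WT 2 of experiment 3, 176 TPM in WT 2 of experiment 2 and 112 TPM in KO 2 of experiment 4, and was at most 62.9 TPM elsewhere. Sox9 stood at 89.97, 45.1, 43.2, 17.04 and 20.02 TPM in the same order, and at most 23.9 TPM elsewhere. These 5 libraries were also the 5 highest in Krt8. Col6a3 and Sox9 were picked for their likeness to Krt8 and Krt18, so this overlap follows from the choice and is no separate result. Fibrillar Col1a1 stood at 16.4 TPM in WT 2 of experiment 4, against 119 TPM in WT 1 of experiment 2. Of the 7 markers on the fibroblast list, 6 were highest in WT 2 of experiment 3 and 1, the receptor gene Pdgfra, in WT 2 of experiment 4. Pdgfra stood at 49.8 TPM there, at 26.3 TPM in WT 1 of experiment 2 and at 17.8 TPM in WT 2 of experiment 3. Col6a3 had the same order over these libraries. Pdgfra came next in WT 3 of experiment 1 (16.8 TPM), where Col6a3 stood at 15.4 TPM. The part of fibroblasts in the pattern was not tested. Pecam1 had r = -0.79 (Spearman's rho = -0.77) with the same mean.

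**Figure D5:**
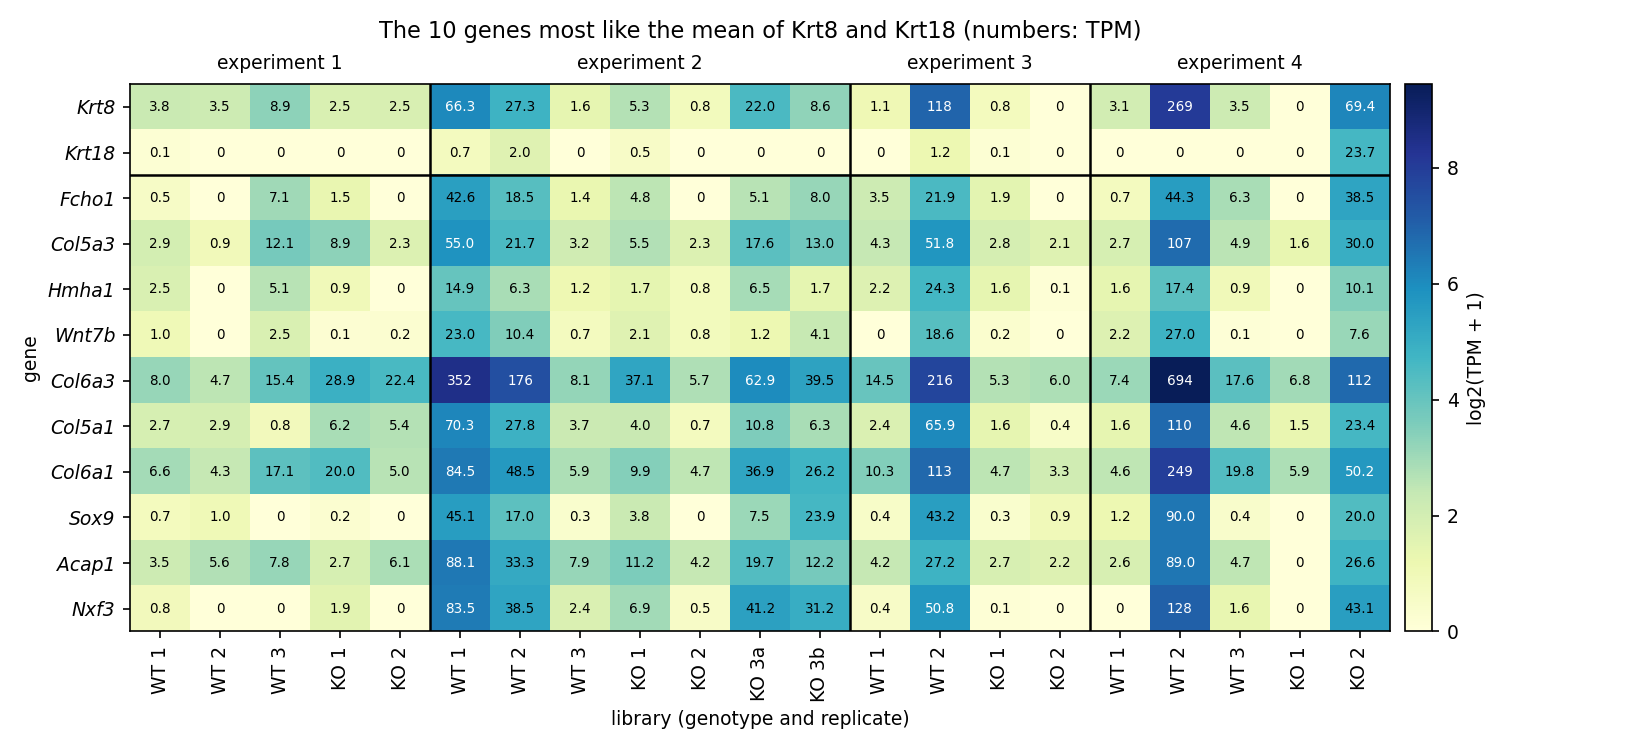
TPM of Krt8, Krt18 and the 10 genes with the highest correlation to their mean (rows) in each of the 21 libraries (columns), with colour as log2(TPM + 1) and the number in each cell as TPM. WT 1 of experiment 2, WT 2 of experiments 2, 3 and 4 and KO 2 of experiment 4 are high for Krt8 and for most of the 10 genes, and Krt18 is above 2.02 TPM in the last of these only.

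Sequence copies and neighbours bear on 3 of the genes. Krt8 shares 98.6% identity over 941 bases with the processed pseudogene Krt8-ps, and Krt18 90.5% over 1267 bases with Gm5200, so reads could be split between them, and neither copy was analysed here. No copy of at least 500 bases and 90% identity was found for the other 6 genes among the annotated transcripts. Gm36026 overlaps Krt8 by 271 bases on the opposite strand, and Gm671 overlaps Krt7. Whether counting used the strand is not stated, so reads from these cannot be told apart from those of Krt8 and Krt7 there.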

How the data were processed

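Total RNA, 30 ng per library, went through a stranded kit that depletes ribosomal RNA, with paired reads of 150 bases according to the labels' protocols. TPM was computed by the authors and deposited as 1 table with decimal commas and 21 columns. The submitters' processing notes name GRCm38; an aligner or counter is "not given in the sources used here". Counting error cannot be derived from TPM, so no counting interval is given. Genotype and experiment come from column names. Of the 2 columns under the same header 1 is called KO 3a and the other KO 3b of experiment 2, and no column names KO 3 of experiment 4.

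A gene was tested when 10 or more libraries reached 1 TPM (13503 genes). Tests were run on log2(TPM + 1) with limma 3.58.1 in R 4.3.3 (statmod 1.5.0), with a trended, robust variance prior, experiment and genotype as terms, and Benjamini-Hochberg adjustment over all genes at 0.05. Slopes used log2(TPM + 1) of Pecam1. Fold changes on this scale understate those of low genes. Relations used 100000 permutations. The fits were tested on simulated data. Copies were sought with BLAST+ 2.17.0. Sequences are RefSeq windows on GRCm38.p6, and coordinates are from GENCODE on GRCm38.

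Named genes are the 8, Pecam1, the up to 4 highest by median of each marker list, and the 10 most like Krt8 and Krt18, and genes named outside this rule are said to be so. The genes and lists were chosen with earlier results of these data known. Alternatives changed the pseudocount, filter, scaling, prior, terms, libraries and experiments.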

Additional observations from a re-analysis of the deposited data

Results flagged for a closer look

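KO 2 of experiment 4 lay far above the other 9 KO libraries for 6 genes: Krt8 at 69.4 TPM, Krt18 at 23.7 TPM, Krt7 at 3.12 TPM, Krt19 at 27.9 TPM, Epcam at 16.02 TPM and Cldn4 at 2.71 TPM. The next highest KO libraries stood at 22 TPM for Krt8, 0.45 TPM for Krt18, 0.98 TPM for Krt19 and 1.03 TPM for Epcam. KO 1 of experiment 2 lay above the other KO libraries for Cldn7 at 0.24 TPM, and above the other 3 KO libraries of its experiment for Krt18 at 0.45 TPM, Epcam at 1.03 TPM and Cldn7 at 0.24 TPM. The 3 values of KO 1 of experiment 2 are low and set against libraries of that experiment listed at 0. Each was picked out because 1 library held most of the range of its group. In all, 16 sets of a gene and a group of KO libraries with any spread were looked at, Pecam1 included, and 10 were picked out, where chance picks about 1 in 20 under normal values, which these are not. WT groups were too large or too small for this rule.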

How the results depend on the processing

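The slope of Krt8 on Pecam1 kept its sign in all alternatives, from -3.44 to -1.73, and kept its call in all but the replicate block (limma adjusted p from 4.4e-06 to 0.289). The difference of Krt8 between KO and WT ran from -2.32 to -0.997 over all alternatives and passed in 0 of them (limma adjusted p from 0.598 to 0.999). With a replicate block in place of the experiment term, Krt8 had a slope of -2.41 (adjusted p = 0.289), 0 genes passed on Pecam1 or on genotype and 0 of the keratin and adhesion genes passed. Same-numbered libraries of an experiment did not pair: 2 of 10 pairs had a correlation of deviations above 0.1 (-0.20 to 0.36).

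Genes called KO against WT were 2 with a common median or quantile normalization, and 0 without experiment 1 or experiment 2. Genes called between experiments were 2529 with no filter, 1902 with TPM rescaled without mitochondrial and small RNA genes, 2496 with a common median, 2339 with KO replicate 3a in experiment 4, 1847 without the 3 libraries lowest in Pecam1, 4 without experiment 2 and 1715 without experiment 4. Leaving out each library gave 2335 (KO replicate 2 of experiment 4) to 5015, with 2590 without WT replicate 3 of experiment 2. Genes called on Pecam1 were 154 without these 3 libraries, 1769 without experiment 2, 400 without experiment 4, and 1958 to 4684 without each library, the last without WT replicate 2 of experiment 4. The relation of Krt8 to Krt18 was 0.48, 0.49 and 0.47 without experiments 1, 2 and 3, where it lost its call (adjusted permutation p = 0.0812, 0.0942 and 0.0816), and 0.47 to 0.63 without each library. The call was lost without WT replicate 1, 2 or 3 or KO replicate 2 of experiment 2, without WT replicate 1 or 2 or KO replicate 2 of experiment 3, or without KO replicate 1 of experiment 4. That of Krt18 to Pecam1 ran from -0.77 to -0.088 without each library. The cause of these changes was not tested. Depth is unknown in TPM, so low values of these genes cannot be given a counting error.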
